A study of Mus musculus with 32 samples.

Results

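Interferon-stimulated genes are genes that cells switch on when they sense interferon, and 43 of them were followed by symbol in the expression table of 24940 genes. They were measured by RNA-seq in 4 cell types of the mononuclear phagocyte system, sorted from lungs of mice that had no treatment. The cell types were alveolar macrophages (AM), inflammatory monocytes (iMo, called inflammatory macrophages in another label), interstitial macrophages (IM) and patrolling monocytes (pMo, likewise called patrolling macrophages). Each was taken from DBA2J and from C57BL6J mice, which are both inbred strains, and each combination of type and strain had 2 RNA libraries, 16 in all. ATAC-seq, which maps open chromatin, gave 1 list of peaks for each of the 8 combinations. The sorting gates used SiglecF, CD64, Ly6c, Ly6g, CD11b, CD11c, F4/80 and CD45. The labels give no age or sex and do not say that the libraries came from separate animals, so p-values here measure only the spread between libraries, which may be technical. Of the 43 genes, 42 passed a mean of 1 TPM over the 16 libraries and were tested among 12277 genes, and Ifi44, at a mean of 0.545 TPM, did not.

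Type I interferons bind the receptor made of IFNAR1 and IFNAR2, and the kinases JAK1 and TYK2 then pass the signal to a complex with STAT2 and IRF9, which binds a DNA element called the interferon-stimulated response element, or ISRE. Interferon gamma acts through another element, the gamma-activated sequence, or GAS. The products of the induced genes detect viral RNA, block its translation, degrade it, or tag and remodel host and viral proteins, and many are expressed at a low tonic level in healthy mononuclear phagocytes without infection.

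The libraries held between 6676112 and 22617973 reads in genes. Levels are in TPM, a unit scaled to the library total, and each value times the genomic span of its gene was a whole multiple of 1 step per library. The values are scaled to the span of the locus, introns included, and levels are compared below only between libraries, not between genes. The ribosomal entries took between 22.6% and 67.6% of the TPM total of a library, the most in AM, which lowers all other TPM values there. The AM libraries had the highest summed levels of 10 alveolar macrophage markers (1555 to 2605 TPM, against 66.9 to 854 TPM in the other types). All 8 inflammatory monocyte markers were called higher, and all 8 patrolling monocyte markers lower, in iMo than in pMo. The IM libraries had the highest levels of 10 interstitial macrophage markers (2595 to 6958 TPM, against 107 to 783 TPM elsewhere), and they also held neutrophil markers at a sum of 2870 to 4707 TPM, against 178 to 240 TPM in iMo, 111 to 159 TPM in pMo and 18.9 to 27.1 TPM in AM. Plasmacytoid dendritic cell markers, from cells that can secrete much interferon, summed to 50.7 to 80.1 TPM in IM. They summed to 34.4 to 44.2 TPM in iMo, 36.1 to 58.4 TPM in pMo and 24.8 to 36.25 TPM in AM. Of this list, Siglech was at 11.9 to 50.4 TPM in IM and at most 1.93 TPM in the other types, while Runx2 and Smim5 were present in every library. In such sorted bulk samples, fewer cells of a type and less RNA per cell cannot be told apart.

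The promoters of 6 of the genes are shown because they carry the ISRE letters and belong to the genes that differed most between the monocyte types. They are RefSeq windows on GRCm38.p6, 250 bases before to 50 bases after the annotated start, written 5′ to 3′ on the strand of the gene, with ISRE matches (GAAA, any 2 bases, then GAAA, on either strand) in capitals. The windows are at chr5:92348840-92349139 (minus strand), chr4:156200769-156201068 (minus strand), chr19:34583279-34583578 (plus strand), chr12:26456403-26456702 (minus strand), chr19:34640639-34640938 (plus strand) and chr19:34607707-34608006 (plus strand).
Cxcl10: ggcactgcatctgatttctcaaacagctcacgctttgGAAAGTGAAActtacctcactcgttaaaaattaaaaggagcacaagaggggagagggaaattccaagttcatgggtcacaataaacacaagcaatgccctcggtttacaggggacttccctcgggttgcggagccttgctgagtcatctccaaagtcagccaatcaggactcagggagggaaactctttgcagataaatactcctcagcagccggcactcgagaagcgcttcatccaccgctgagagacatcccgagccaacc
Isg15: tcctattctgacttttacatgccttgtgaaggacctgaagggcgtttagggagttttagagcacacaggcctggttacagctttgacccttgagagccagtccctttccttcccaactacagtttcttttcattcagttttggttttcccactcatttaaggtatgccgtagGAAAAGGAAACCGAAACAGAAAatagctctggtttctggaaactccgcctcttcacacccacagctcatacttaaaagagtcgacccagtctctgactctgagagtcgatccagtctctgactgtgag
Ifit3: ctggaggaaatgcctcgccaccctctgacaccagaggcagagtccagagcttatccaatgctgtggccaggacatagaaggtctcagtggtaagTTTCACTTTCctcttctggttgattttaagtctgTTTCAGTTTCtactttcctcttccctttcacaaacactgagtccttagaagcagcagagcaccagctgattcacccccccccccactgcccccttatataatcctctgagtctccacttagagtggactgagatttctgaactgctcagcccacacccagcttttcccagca
Rsad2: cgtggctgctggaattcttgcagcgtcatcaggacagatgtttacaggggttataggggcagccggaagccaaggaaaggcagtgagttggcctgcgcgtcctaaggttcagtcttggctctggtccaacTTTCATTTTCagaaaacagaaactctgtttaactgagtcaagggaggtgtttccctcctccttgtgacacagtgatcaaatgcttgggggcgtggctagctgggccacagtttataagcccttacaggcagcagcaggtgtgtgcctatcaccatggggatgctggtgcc
Ifit1: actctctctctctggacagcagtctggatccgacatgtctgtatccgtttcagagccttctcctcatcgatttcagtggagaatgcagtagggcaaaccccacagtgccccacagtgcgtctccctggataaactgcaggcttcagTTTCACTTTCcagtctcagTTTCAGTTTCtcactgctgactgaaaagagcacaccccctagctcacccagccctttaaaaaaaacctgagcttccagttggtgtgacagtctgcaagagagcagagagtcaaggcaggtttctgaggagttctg
Ifit3b: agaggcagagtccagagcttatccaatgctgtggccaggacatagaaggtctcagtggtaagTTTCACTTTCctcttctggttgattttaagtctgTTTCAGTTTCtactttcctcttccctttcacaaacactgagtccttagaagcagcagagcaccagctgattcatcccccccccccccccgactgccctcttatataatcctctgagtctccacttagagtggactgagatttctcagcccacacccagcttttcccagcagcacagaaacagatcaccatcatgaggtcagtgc

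In Isg15 3 overlapping matches ran together, with first bases at -78, -72 and -66 from the start. Ifit3 and Ifit3b, neighbours on chromosome 19, held the same pair of matches, at -156 and -122 in Ifit3 and at -188 and -154 in Ifit3b. Ifit1 had its pair at -104 and -85, Rsad2 1 match at -120, and Cxcl10 1 match at -213, the farthest from the start of these 6. A window with its start within 1 kb of the start in the expression table was at hand for 32 of the 43 genes, under 80%, so a check over the whole set is void and the shares describe these 32 alone. The ISRE letters stood in 17 of the 32 (53.1%), against 297 of 9050 tested genes with a window (3.28%). The GAS letters, TTCNNNGAA on either strand, stood in 6 of the 32 (18.8%), against 7.18% of the same tested genes. Bst2, Eif2ak2, Oas1a and Igtp had both, and in 1 of the 4 the matches overlapped. A match is only a string of letters, and binding of a factor was not measured. The median iMo minus pMo difference was 1.32 on the log2 scale for the 17 genes with the ISRE letters and 1.18 for the 14 tested genes without them.

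The level of these genes had 1 order in most cases. By the mean over the 4 libraries of a type, 39 of the 43 genes were highest in iMo and 41 were lowest in AM. Over both strains together, the order from iMo over IM and pMo down to AM held for 34 genes. It held for fewer within a strain, 20 of 43 in DBA2J and 22 of 43 in C57BL6J. In DBA2J the mean of IM was above that of iMo for 20 genes, Rsad2 for one with 53.3 TPM in IM and 17.0 TPM in iMo, while in C57BL6J it was above iMo for 0 and below pMo for 19, such as Isg15 with 5.62 TPM in IM and 14.8 TPM in pMo. The mean of iMo was above that of pMo for all 43 genes in each strain, and AM was lowest for 40 in DBA2J and 41 in C57BL6J. Pooled over strains, IM came first for 4 genes, pMo ranked above IM for 3, and AM ranked above pMo for Trim25, a ubiquitin ligase that acts on RIG-I, and Lgals3bp, a secreted glycoprotein. Neighbours in the order often lay within the spread of the libraries. The highest type and the next differed past the threshold for 20 genes, both middle types from each other for 18, and the lowest type from the one above it for 39 (limma, adjusted p under 0.05). Summed over the 43 genes, the libraries ran from 326 to 351 TPM in AM, from 2157 to 3215 TPM in iMo, from 827 to 2044 TPM in IM and from 764 to 1252 TPM in pMo. The AM sums were below every other library, and the iMo sums above every other library, while the IM and pMo sums overlapped. A sum gives most weight to genes with high values, such as Ifi27l2a with 513 TPM in DBA2J iMo replicate 2. By the mean of log2(TPM + 1) over the 43 genes, the iMo and IM libraries overlapped. DBA2J IM replicate 1 (5.14) was then above DBA2J iMo replicate 2 (4.92), while AM stayed below every other library.

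**Figure D1:**
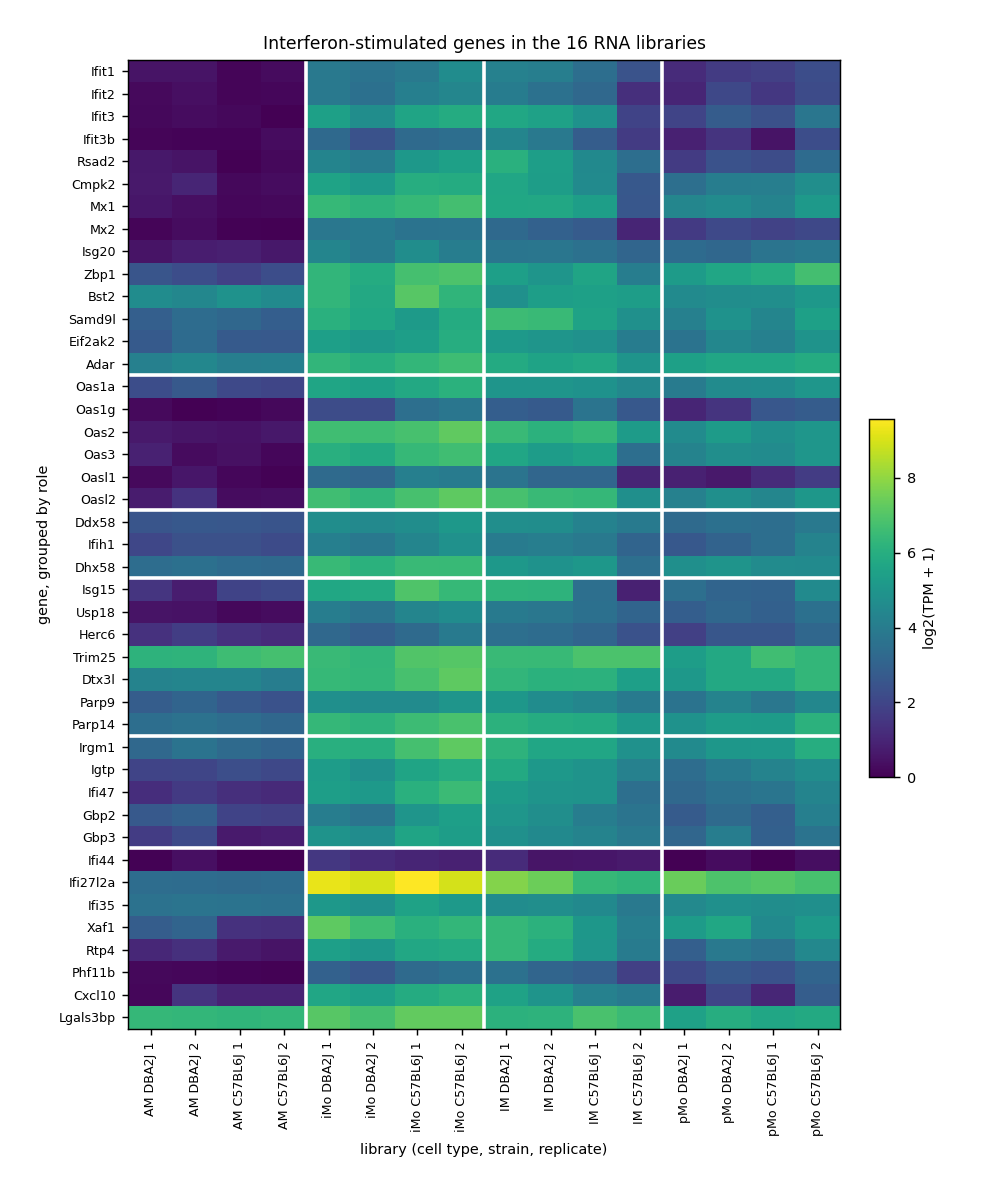
Levels of the 43 interferon-stimulated genes (rows, grouped by role) in the 16 RNA libraries (columns, by cell type, strain and replicate) as log2(TPM + 1), from dark (0) to bright (high). The 4 AM columns are dark for most genes, the iMo and DBA2J IM columns are the brightest, and the second C57BL6J IM column is darker than the other 3 IM columns.

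In inflammatory monocytes these genes were higher than in patrolling monocytes as a group. Of the 42 tested, 39 were called higher in iMo, where 18.9% of all tested genes were, and 0 were called lower, where 6.36% of all tested genes were. By limma 0 were lower at an unadjusted p under 0.05 too, and 0 with voom or array weights. The median difference was 1.38 on the log2(TPM + 1) scale, from 0.44 to 4.14, against 0.13 over all tested genes. With median-of-ratios scaling, which removes the shift from the ribosomal entries, the medians were 1.19 and -0.02. In 33 of the 42 every iMo library was above every pMo library, which was so for 15.1% of all tested genes. Of the 3 genes that missed the threshold, the nucleic acid sensor Zbp1 differed by 0.59 ± 0.30 (SE; limma adjusted p = 0.185), Phf11b by 0.56 ± 0.25 (0.133) and Ifi35 by 0.44 ± 0.16 (0.0602).

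Cxcl10, a chemokine that attracts activated T cells, differed most. It was at 50.2, 41.9, 58.5 and 68.7 TPM in the iMo libraries, against 0.659, 3.0, 1.02 and 6.08 TPM in the pMo libraries, the DBA2J pair before the C57BL6J pair in each. No iMo value came near a pMo value, and the difference was 4.14 ± 0.41 (SE) on the log2 scale (limma adjusted p = 3.5e-05). Isg15, the ubiquitin-like protein whose promoter with 3 joined matches is printed above, was at 51.5, 54.9, 121 and 83.4 TPM in iMo, against 10.3, 7.49, 6.98 and 22.7 TPM in pMo. The groups did not overlap, and the difference was 2.68 ± 0.49 (adjusted p = 0.00216). Ubiquitin-like modification needs partners, and Usp18, which removes ISG15 and dampens receptor signalling (1.06 ± 0.17), the ISG15 ligase Herc6 (0.83 ± 0.25) and Trim25 (0.69 ± 0.11) were called higher as well. With Dtx3l, Parp9 and Parp14, all 7 genes of this role were called higher, where 18.9% of all tested genes were, with a median of 0.94.

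The antiviral effectors gave 13 calls higher among 14 genes, where 18.9% of all tested genes were called higher, with a median of 1.71. Ifit3, one of the IFIT proteins that bind foreign RNA, was at 42.3, 24.8, 46.6 and 58.4 TPM in iMo, against 2.90, 5.97, 4.2 and 12.4 TPM in pMo (difference 2.68 ± 0.53, limma adjusted p = 0.00340). Rsad2, which encodes viperin, an enzyme that makes a chain-terminating nucleotide, was at 19.0, 14.9, 33.8 and 42.2 TPM in iMo, against 2.16, 4.35, 3.63 and 9.11 TPM in pMo (2.31 ± 0.31, adjusted p = 0.000264). Both were without overlap between the groups. Ifit1, from the gene cluster of Ifit3, was at 13.8, 11.4, 13.8 and 24.0 TPM in iMo, against 1.25, 2.16, 2.51 and 3.84 TPM in pMo (2.28 ± 0.24), and Ifit2 at 13.5, 10.7, 16.6 and 20.1 TPM in iMo, against 0.991, 3.16, 1.96 and 3.60 TPM in pMo (2.28 ± 0.37). Ifit3b (1.85 ± 0.38), the copy of Ifit3, was called higher too. Mx1 (1.84 ± 0.45) and Mx2 (1.83 ± 0.30), the dynamin-like GTPases that are known to carry inactivating mutations in most inbred strains, were called higher, as were the tetherin gene Bst2 (1.59 ± 0.20), the kinase gene Eif2ak2, which stops translation (1.17 ± 0.26), and Adar, an RNA editing enzyme (0.64 ± 0.17). Ifit3 and Ifit3b, and likewise Oas1a and Oas1g, are near-identical copies, so how reads were split between them is uncertain.

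All 6 oligoadenylate synthetase genes, whose products make the activator of RNase L or are inactive relatives of such enzymes, were called higher. Their median was 1.73, and 18.9% of all tested genes were called higher. Oasl1 was at 8.86, 7.83, 16.4 and 14.9 TPM in iMo, against 0.842, 0.586, 1.25 and 2.27 TPM in pMo (2.53 ± 0.37, limma adjusted p = 0.000518). Oasl2 was at 98.4, 77.0, 109 and 146 TPM in iMo, against 17.4, 26.4, 20.0 and 32.7 TPM in pMo (2.12 ± 0.32), again without overlap. Oas2 (1.89 ± 0.23), Oas3 (1.57 ± 0.36), Oas1a (1.15 ± 0.17) and Oas1g (0.95 ± 0.21) followed. The 3 cytosolic RNA sensors were called higher, Dhx58 by 1.66 ± 0.26, Ddx58, which encodes RIG-I, by 1.21 ± 0.14, and Ifih1, which encodes MDA5, by 0.94 ± 0.23. So were all 5 interferon-inducible GTPases, with Ifi47 at 39.8, 34.4, 65.7 and 91.5 TPM in iMo, against 8.48, 10.8, 12.2 and 18.9 TPM in pMo (2.06 ± 0.27, adjusted p = 0.000251). Among the other induced genes, Ifi27l2a was at 615, 513, 761 and 494 TPM in iMo, against 167, 118, 132 and 111 TPM in pMo (2.16 ± 0.16, adjusted p = 5.87e-06).

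The monocyte difference stood in each strain. The median over the 42 genes was 1.37 in DBA2J and 1.52 in C57BL6J. A test of the difference between strains called 0 of the 42 members by limma, in either direction, where 0.0815% of all genes were called higher and 0.0489% lower. At an unadjusted p under 0.05 the count was 1 member (Gbp3, -1.0 ± 0.45), and it was 2 with voom on recovered reads and 0 with array weights, with 0 adjusted calls by both.

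**Figure D2:**
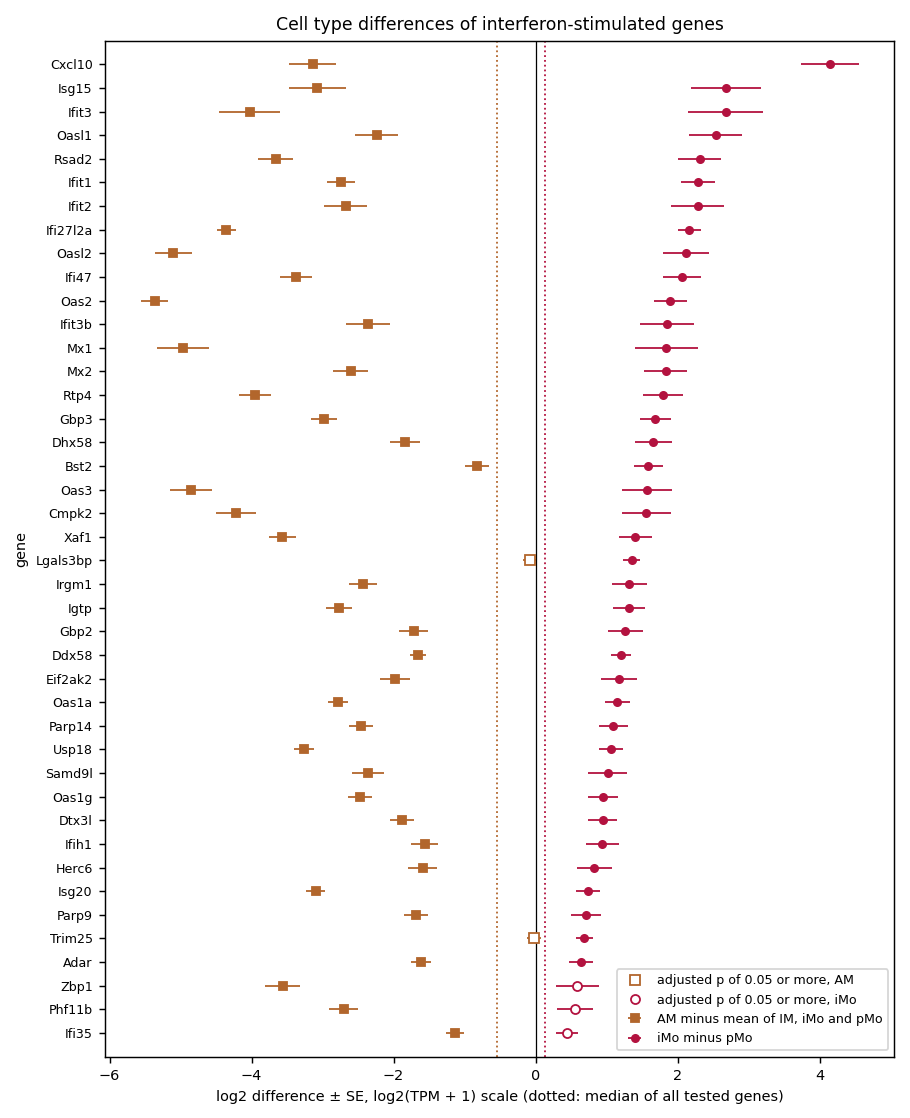
Log2 difference ± SE for the 42 tested genes, AM minus the mean of IM, iMo and pMo (squares) and iMo minus pMo (circles), with open symbols where the adjusted p was 0.05 or more and dotted lines at the median of all tested genes. All circles lie right of 0, from 0.44 to 4.14, and all squares left of 0, from -5.37 to -0.02, with Trim25 and Lgals3bp next to 0.

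In alveolar macrophages the same genes were lower than in the other types. Against the mean of the 3 others, 40 of 42 were called lower, where 59.3% of all tested genes were, and 0 were called higher, where 12.5% were. By limma 0 were higher at an unadjusted p under 0.05, 0 with array weights and 2 with voom. The ribosomal entries weigh most in AM, which shifts the background. With median-of-ratios scaling 39 of 42 were called lower, where 31.2% of all tested genes were, and 2, Trim25 (0.69 ± 0.10, limma adjusted p = 0.000121) and Lgals3bp (0.63 ± 0.08, 3.69e-05), were called higher, where 32.4% were. The median difference was -2.69 against -0.55 over all genes, and -2.31 against 0.03 with median-of-ratios scaling. In 35 of 42 every AM library was below all 12 other libraries, which was so for 30.4% of all tested genes.

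Oas2 differed most, at 0.589, 0.452, 0.377 and 0.535 TPM in AM, against 23.6 to 151 TPM with a median of 76.1 TPM in the 12 other libraries. The highest AM value was far below the lowest of the others, and the difference was -5.37 ± 0.19 (limma adjusted p = 9.16e-10). Its relative Oasl2 was at 0.677, 1.65, 0.254 and 0.273 TPM in AM, against 17.4 to 146 TPM with a median of 79.3 TPM (-5.10 ± 0.26), and Oas3 at 0.822, 0.226, 0.352 and 0.128 TPM in AM, against 10.0 to 99.0 TPM with a median of 41.8 TPM (-4.85 ± 0.29). All 6 synthetase genes were called lower in AM, where 59.3% of all tested genes were.

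Mx1 was at 0.477, 0.309, 0.136 and 0.165 TPM in AM, against 5.09 to 105 TPM with a median of 46.0 TPM in the others (-4.96 ± 0.37, limma adjusted p = 3.64e-07). Ifit3 was at 0.154, 0.240, 0.159 and 0 TPM in AM, which is 3, 4, 2 and 0 reads, against 2.83 to 58.4 TPM in the others (-4.03 ± 0.43). Values this near 0 are held back by the pseudocount of 1 TPM, and the median over the 42 genes was -3.21 when reads were recovered and fitted with voom. All 14 antiviral effectors, all 3 RNA sensors and all 5 GTPases were called lower in AM, where 59.3% of all tested genes were.

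Cmpk2, a mitochondrial nucleotide kinase next to Rsad2 on chromosome 12, was at 0.554, 0.985, 0.163 and 0.246 TPM in AM, against 5.14 to 61.6 TPM with a median of 30.6 TPM in the others (-4.22 ± 0.28). Rsad2 was at 0.532, 0.429, 0 and 0.152 TPM in AM, against 2.16 to 66.2 TPM with a median of 17.0 TPM in the others (-3.66 ± 0.25). Rtp4 was at 1.11, 1.52, 0.603 and 0.425 TPM in AM, against 6.55 to 81.9 TPM with a median of 32.1 TPM in the others (-3.95 ± 0.23). None of the AM libraries reached the others in these genes. Xaf1 was at 6.02, 7.4, 1.61 and 1.47 TPM in AM, against 16.1 to 144 TPM in the others (-3.57 ± 0.19), with the C57BL6J AM pair below the DBA2J AM pair.

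Not every member was near 0 in AM. Ifi27l2a was at 9.81, 9.50, 8.85 and 9.49 TPM, against 75.3 to 761 TPM in the others (-4.36 ± 0.13), and Bst2 at 23.9, 20.7, 28.5 and 22.8 TPM, against 22.9 to 137 TPM (-0.83 ± 0.17). The Bst2 values of AM overlapped those of pMo. Trim25 was at 72, 74.2, 97.0 and 107 TPM in AM, against 39.2 to 132 TPM in the others (-0.02 ± 0.09, limma adjusted p = 0.839), and Lgals3bp at 82.1, 80.4, 76.8 and 79.3 TPM, against 44.1 to 154 TPM (-0.08 ± 0.10, 0.482). For both genes the AM libraries lay inside the range of the others.

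Against each type alone, AM was called lower for 40 of 42 members against IM, where 61.1% of all genes were lower, for 41 against iMo, where 54.3% were, and for 37 against pMo, where 46.6% were. Against pMo 2 members were called higher in AM, where 15.2% of all genes were. They were Lgals3bp (0.60 ± 0.12, limma adjusted p = 0.00127) and Trim25 (0.42 ± 0.11, 0.00724). Cxcl10 (-0.76 ± 0.41, adjusted p = 0.129), Oasl1 (-0.85 ± 0.37, 0.0660) and Bst2 (-0.14 ± 0.20, 0.558) did not pass against pMo. These 3 comparisons share the AM libraries, as the monocyte and IM comparisons share theirs.

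The place of interstitial macrophages between the monocyte types held for strain-pooled means, and within a strain for 22 of 43 members in DBA2J and 24 of 43 in C57BL6J. In iMo 22 of 42 members were called higher than in IM, where 15.6% of all genes were, with Ifi27l2a (2.23 ± 0.16) and Isg15 (2.01 ± 0.49) first. In IM 19 of 42 were called higher than in pMo, where 30.3% of all genes were, led by Cxcl10 (3.01 ± 0.41) and Rsad2 (2.45 ± 0.31), and 1, Zbp1 (-0.87 ± 0.30, limma adjusted p = 0.0384), was called lower, where 9.2% were. The Zbp1 call was lost without any 1 of 10 libraries, C57BL6J IM replicate 2 among them. The medians were 0.72 against -0.10 over all genes for iMo minus IM, and 0.58 against 0.26 for IM minus pMo. Within DBA2J 4 members were called higher in iMo than in IM, where 8.45% of all genes were, and 28 higher in IM than in pMo, where 24.8% were. Within C57BL6J 36 were called higher in iMo than in IM, where 12.6% of all genes were, and 2 higher in IM than in pMo, where 19.1% were.

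Within interstitial macrophages the DBA2J libraries had more of most of these transcripts than the C57BL6J libraries. By limma, of 42 members, 8 were called higher in DBA2J, where 3.77% of all tested genes were, and 0 lower, where 6.74% were. At an unadjusted p under 0.05 limma had 2 members lower, and after adjustment voom had 1 and array weights 0. With median-of-ratios scaling 15 were called higher, where 5.75% of all genes were. The median difference was 0.81, against -0.01 over all genes, and 38 of 42 differences were above 0. In 31 of 42 both DBA2J libraries were above both C57BL6J libraries, which was so for 25.5% of all tested genes.

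Isg15 differed most, at 73.6 and 71.7 TPM in DBA2J IM (117 and 132 reads), against 10.4 and 0.851 TPM in C57BL6J IM (14 and 1 reads). The strains did not overlap, while the C57BL6J libraries lay far apart, and the difference was 4.00 ± 0.69 (limma adjusted p = 0.00489). In iMo Isg15 was at 51.5 and 54.9 TPM in DBA2J, against 121 and 83.4 TPM in C57BL6J. Cmpk2 was at 49.3 and 39.1 TPM in DBA2J IM, against 22.8 and 5.14 TPM in C57BL6J IM (1.89 ± 0.49, adjusted p = 0.0318). Its neighbour Rsad2 was at 66.2 and 40.3 TPM in DBA2J IM, against 22.3 and 9.87 TPM in C57BL6J IM (1.73 ± 0.43, adjusted p = 0.0285).

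The other 5 calls were in the same direction, most with a wide spread within C57BL6J. Ifit3b was at 19.6 and 13.5 TPM in DBA2J IM, against 6.09 and 2.18 TPM in C57BL6J IM (1.87 ± 0.53, limma adjusted p = 0.0486). Xaf1, a pro-apoptotic zinc finger gene, was at 82 and 69.9 TPM in DBA2J IM, against 32.3 and 16.1 TPM in C57BL6J IM (1.69 ± 0.32, adjusted p = 0.00799), and Rtp4, a negative regulator of interferon responses in mice, at 81.9 and 58.8 TPM in DBA2J IM, against 31.8 and 14.9 TPM in C57BL6J IM (1.63 ± 0.40, 0.0258). Samd9l was at 94.6 and 88.3 TPM in DBA2J IM, against 44.2 and 27.3 TPM in C57BL6J IM (1.37 ± 0.39, 0.0474). Ifi27l2a, with 223 and 171 TPM in DBA2J IM against 84.1 and 75.3 TPM in C57BL6J IM (1.28 ± 0.23, 0.00559), was the 1 call with close C57BL6J libraries.

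**Figure D3:**
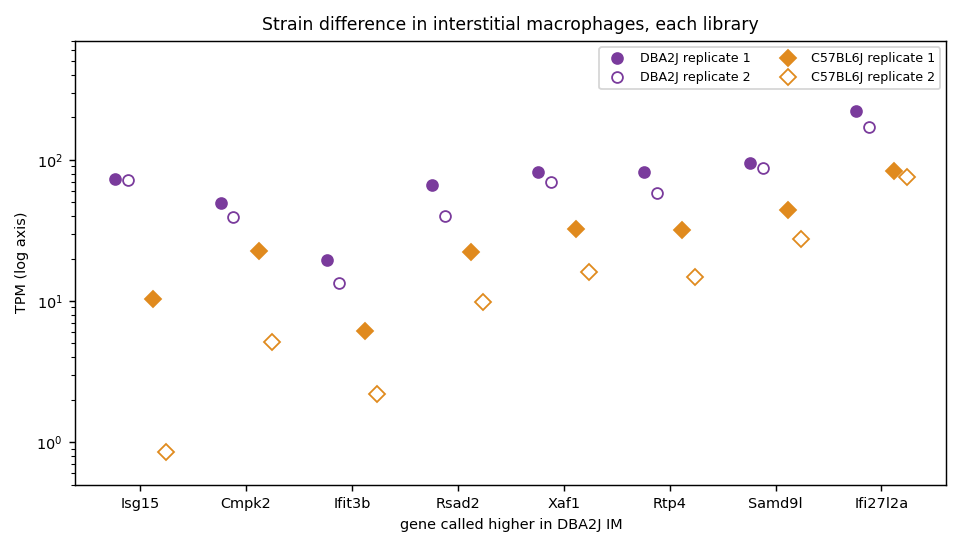
TPM on a log axis of the 8 genes called higher in DBA2J IM, with the 2 DBA2J libraries (circles) left of the 2 C57BL6J libraries (diamonds), filled for replicate 1 and open for replicate 2. In every gene both DBA2J libraries lie above both C57BL6J libraries, and the open diamond is the lowest, at 0.851 TPM for Isg15.

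The C57BL6J IM libraries differed from each other as a set. All 42 tested members were higher in replicate 1 than in replicate 2, by a median of 0.83 on the log2 scale (0.02 to 2.95), where all tested genes had a median of 0.04 and 53.1% were higher in replicate 1. Mx1, for example, was at 40.4 TPM in replicate 1 and 5.09 TPM in replicate 2, and Oas3 at 45.2 and 10.0 TPM. Without C57BL6J IM replicate 1 the median strain difference was 1.23 and 24 members were called higher in DBA2J, and without replicate 2 it was 0.31 and 2 were. Without DBA2J IM replicate 1 there was 1 call and without its replicate 2 there were 4. With the 4 IM libraries fitted alone 0 members were called, where Isg15 had a limma adjusted p of 0.203. No share of all tested genes is given for these smaller fits. A change in the member counts therefore cannot be told apart from a change over all genes.

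The summed levels of cell type markers also differed between these libraries. C57BL6J IM replicate 2 had more interstitial macrophage markers than replicate 1 (6958 and 3507 TPM), more alveolar macrophage markers (854 and 629 TPM), fewer patrolling monocyte markers (713 and 1691 TPM) and fewer B cell markers (77.7 and 325 TPM). Between strains, neutrophil markers summed to 4707 and 4061 TPM in DBA2J IM, against 2870 and 3120 TPM in C57BL6J IM, inflammatory monocyte markers to 1934 and 1915 TPM in DBA2J IM, against 1455 and 1240 TPM in C57BL6J IM, and alveolar macrophage markers to 227 and 244 TPM in DBA2J IM, against 629 and 854 TPM in C57BL6J IM. Of all tested genes, 3.77% were called higher and 6.74% lower in DBA2J IM, so 1 call in a list as short as these says little. Of these lists, 1 of 6 tested neutrophil markers and 3 of 8 inflammatory monocyte markers were called higher in DBA2J. Called lower were 5 of 10 alveolar macrophage markers, 2 of 10 interstitial macrophage markers and 1 of 8 inflammatory monocyte markers. The last was Chil3, which is also on the alveolar macrophage list and is counted in both. Chil3 was at 43.6 and 61.0 TPM in DBA2J IM, against 336 and 385 TPM in C57BL6J IM. Chil3 therefore narrows the strain gap in the inflammatory monocyte sum and widens it in the alveolar macrophage sum. Of the epithelial markers 2 of 6 tested were called lower in DBA2J, with sums of 17.8 and 39.8 TPM in DBA2J IM, against 34.4 and 83.1 TPM in C57BL6J IM. Of the endothelial markers 1 of 5 tested was called lower, with sums of 20.9 and 88.4 TPM in DBA2J IM, against 121 and 187 TPM in C57BL6J IM. Plasmacytoid dendritic cell markers summed to 50.7 and 62.8 TPM in DBA2J IM, against 74.5 and 80.1 TPM in C57BL6J IM, with 1 of 7 called lower (Siglech) and 1 higher (Smim5). T and NK cell markers had 1 of 9 called lower, and B cell, patrolling monocyte and conventional dendritic cell markers had 0 calls by limma, with 1, 3 and 3 markers at an unadjusted p under 0.05. Of the neutrophil markers, S100a8 was at 1167 to 1467 TPM in the IM libraries, while Ly6g was at 0.268 to 2.15 TPM and Camp at 0.571 to 4.22 TPM. Mmp9 ran against the sum of its list, at 383 and 283 TPM in DBA2J IM, against 456 and 561 TPM in C57BL6J IM. Its difference was -0.62 (limma adjusted p = 0.122). Retnlg and Ly6g overlapped between the strains. The part of these cells in the strain difference was not tested.

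**Figure D4:**
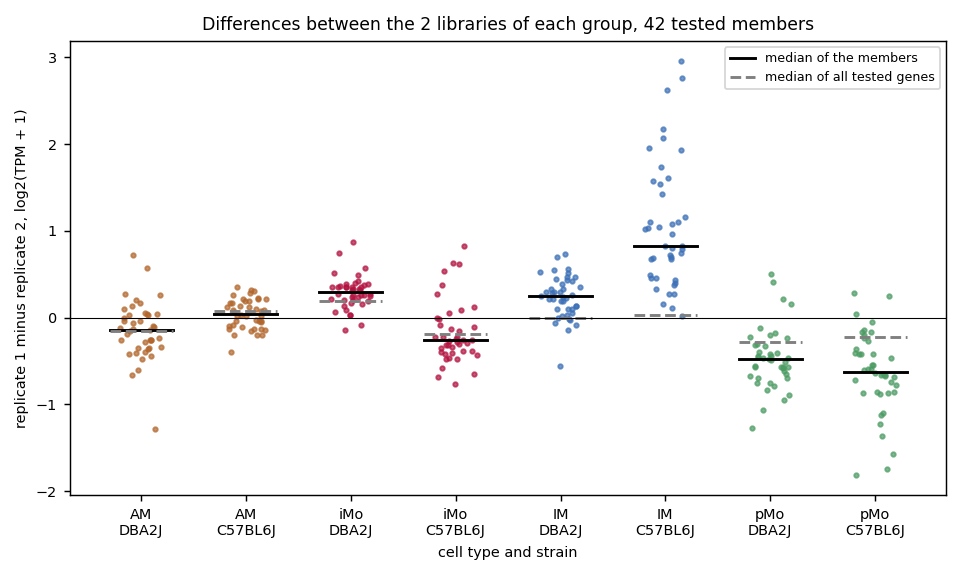
Replicate 1 minus replicate 2 on the log2(TPM + 1) scale for the 42 tested genes (points) in each cell type and strain, with the median of the members (solid line) and of all tested genes (dashed line). In C57BL6J IM all points lie above 0 with a median of 0.83, and in both pMo groups most lie below 0, with medians of -0.48 in DBA2J and -0.62 in C57BL6J.

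The replicates of pMo differed in the other direction, since 38 of 42 members in DBA2J pMo and 39 of 42 in C57BL6J pMo were higher in replicate 2. There the median of all genes was below 0 as well, at -0.28 and -0.22, and only 20.1% and 28.4% of all tested genes were higher in replicate 1. Without any 1 of the 4 pMo libraries the median iMo minus pMo difference was between 1.27 and 1.56.

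The strain difference in IM was larger than its mean in the other types for 5 members, where 1.8% of all tested genes were. These were Isg15 (4.77 ± 0.80, limma adjusted p = 0.0105), Rsad2 (2.19 ± 0.50, 0.0332), Rtp4 (1.82 ± 0.46, 0.0487), the GTPase gene Igtp (1.48 ± 0.37, 0.0461) and Ifi27l2a (1.23 ± 0.26, 0.0264). The count was 10 with median-of-ratios scaling, where 2.99% of all tested genes were called. For the fits without 1 library no such share is given, so their counts cannot be set against all genes. Leaving out 1 library gave 0 without DBA2J IM replicate 1, 1 without C57BL6J IM replicate 2 and 25 without C57BL6J IM replicate 1, and leaving out 1 AM library gave 1 or 2. In iMo and pMo the median over the members was below 0, at -0.55 and -0.48, where all genes had medians of -0.14 and -0.15. With median-of-ratios scaling these medians were -0.36 and -0.28, where all genes had 0.00 and 0.02. In iMo both DBA2J libraries were below both C57BL6J libraries for 33 of 42 members and above for 2, where 30.5% and 10.6% of all tested genes were. In pMo they were below for 14 and above for 2 (25.9% and 13.2% of all tested genes). In AM they were above for 22 and below for 3 (35.2% and 17.9%). Few members passed the adjusted threshold in those types. Xaf1 was called higher in DBA2J AM (1.6 ± 0.32, adjusted p = 0.0188), where 1.99% of all genes were. Oas1g was called lower in DBA2J iMo (-1.42 ± 0.30, 0.0232), where 2.16% of all genes were, and lower in DBA2J pMo (-1.48 ± 0.30, 0.0171) together with Trim25 (-0.93 ± 0.16, 0.00769), where 2.3% were. Oas1g was at 3.70 and 3.51 TPM in DBA2J iMo, against 10.2 and 12.4 TPM in C57BL6J iMo, and its table entry is a non-coding transcript record. Reads of both strains were placed on mm10, which is built from C57BL6J, and the part of mapping in these differences was not tested.

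The genes that make and relay the interferon signal were followed as a list of 49, of which 47 were in the table and 37 were tested. Most interferon genes themselves were listed at 0. Of 11 ligand genes, Ifnb1, Ifna1, Ifna4, Ifna5, Ifne, Ifnl2 and Ifnl3 were listed at 0 in all 16 libraries, and only Ifnk, at 3.63 to 30.9 TPM, was tested. Of the 37 tested genes, 18 were called higher and 1 lower in iMo than in pMo. The largest were the kinase gene Ikbke (1.93 ± 0.20), the corepressor gene Irf2bp2 (1.84 ± 0.17), Stat2 (1.67 ± 0.13) and Irf7, the master regulator of type I interferon production (1.62 ± 0.22). Irf7 was at 632, 500, 760 and 700 TPM in iMo, against 190, 226, 223 and 193 TPM in pMo, without overlap. Socs3, an inhibitor of JAK signalling, was the 1 lower gene (-1.24 ± 0.15), while its relative Socs1 was called higher (1.40 ± 0.25). All tested genes had 18.9% called higher and 6.36% lower. With median-of-ratios scaling the counts were 16 higher and 3 lower, where all genes had 12.7% in each direction.

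In AM 33 of the 37 were called lower and 2 higher than in the mean of the other types, where 59.3% and 12.5% of all tested genes were. With median-of-ratios scaling 27 were lower and 5 higher, where 31.2% and 32.4% were, and Irf3 and Tyk2 turned from lower to higher. All 6 tested receptor genes were called lower under both. Tlr9, the sensor of unmethylated DNA, was at 1.38, 1.30, 1.72 and 0.977 TPM in AM, against 129 to 534 TPM in the 12 other libraries (-6.58 ± 0.13, limma adjusted p = 2.35e-11). Irf7 was at 7.87, 7.47, 3.74 and 3.71 TPM in AM, against 90.8 to 760 TPM in the others (-5.53 ± 0.18), and Ifnar2 at 4.04, 3.69, 6.16 and 5.84 TPM, against 29.0 to 76.2 TPM (-2.99 ± 0.09). None of these AM values reached the others. Mavs, the adaptor of the RNA sensors, was called higher in AM (1.08 ± 0.13). Between the strains in IM 4 of the 37 were called higher in DBA2J, among them Ifnlr1 (1.30 ± 0.28), Ifnar2 (0.76 ± 0.16) and Myd88 (0.66 ± 0.12), and 2 lower, Socs1 (-1.22 ± 0.35) and Unc93b1 (-0.46 ± 0.13), where 3.77% of all tested genes were higher and 6.74% lower.

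Position in the genome was shared by many members. With gaps of at most 100 kb, 19 of the 43 had another member beside them, in 12 neighbouring pairs. The Ifit genes lay in a row on the plus strand of chromosome 19, Ifit2, Ifit3, Ifit3b and Ifit1, with gaps of 7.0, 19.0 and 27.5 kb. On chromosome 12 Rsad2 and Cmpk2 lay 12.8 kb apart on opposite strands, and on chromosome 16 Dtx3l and Parp9 overlapped on opposite strands. The library kit marks strand, but the sources used here do not say whether the counting used it, so reads of Dtx3l and Parp9 may not be told apart.

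ATAC peaks were described as present or absent within 1 kb of the start in the expression table, and each list is 1 set of peaks made by the authors from 2 libraries, so the spread between them is not known here. The number of members with a promoter peak was 25 of 43 (58.1%) in DBA2J AM and 18 (41.9%) in C57BL6J AM, where 69.3% and 63.2% of all tested genes had one. It was 28 (65.1%) in DBA2J iMo and 33 (76.7%) in C57BL6J iMo, against 76.3% and 73.4% of all tested genes. It was 29 (67.4%) in DBA2J IM and 38 (88.4%) in C57BL6J IM, against 72.2% and 84.9%, and 26 (60.5%) in DBA2J pMo and 34 (79.1%) in C57BL6J pMo, against 72.8% and 75.8%. The lists held from 24429 peaks in DBA2J IM to 70013 in C57BL6J IM, and a longer list reaches more promoters. With the 24429 best-scored peaks of each list, 14 (32.6%) and 11 (25.6%) members had one in DBA2J and C57BL6J AM, where 51.0% and 53.6% of all tested genes did. The other 6 lists then had 25 to 29 members (58.1% to 67.4%), where 62.7% to 72.6% of all tested genes had one.

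The lists divided the members in a few ways. Cmpk2, Isg20, Bst2, Adar, Ifih1, Usp18, Herc6, Trim25, Dtx3l and Parp9 had a promoter peak in all 8 lists, which is 23.3% of the members, where 54.3% of all tested genes had one. Ifit1, Ifit2, Ifit3b, Oasl1, Oasl2, Ddx58, Isg15, Parp14, Irgm1 and Cxcl10 had one in neither AM list but in at least 1 other (23.3%, against 14.7% of all tested genes). Ifit3, Oas1g, Ifi47 and Ifi44 had none in any list. No member had a peak in both iMo lists and in neither pMo list, which was so for 0.758% of all tested genes.

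Peak and level did not always go together. Ifit1 had a peak of 200 bases over both its ISRE matches in all 6 lists outside AM, such as chr19:34640709-34640909 in DBA2J iMo. Rsad2 had a peak over its match in 6 lists, C57BL6J AM included, although its AM level was at most 0.532 TPM. The Cxcl10 promoter had a peak in 5 lists, all outside AM and with its centre between 64 and 96 bases before the start, none of them reaching the match at -213. Isg15 had a promoter peak over its 3 matches in both IM lists and in C57BL6J pMo and none in either iMo list. Its mean level was 53.2 TPM in DBA2J iMo and 72.6 TPM in DBA2J IM, and 102 TPM in C57BL6J iMo and 5.62 TPM in C57BL6J IM. Of the 17 members with the ISRE letters, a peak covered a match in 6 in DBA2J AM, 3 in C57BL6J AM, 6 in DBA2J iMo, 11 in C57BL6J iMo, 6 in DBA2J IM, 12 in C57BL6J IM, 7 in DBA2J pMo and 11 in C57BL6J pMo. These counts come from lists of unequal length, 24429 peaks in DBA2J IM and 70013 in C57BL6J IM. The share for other tested genes with the ISRE letters is not given here, so the counts do not set the members apart. Oas2, with the lowest AM level relative to the others, had a promoter peak in both AM lists and in neither DBA2J monocyte list.

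**Figure D5:**
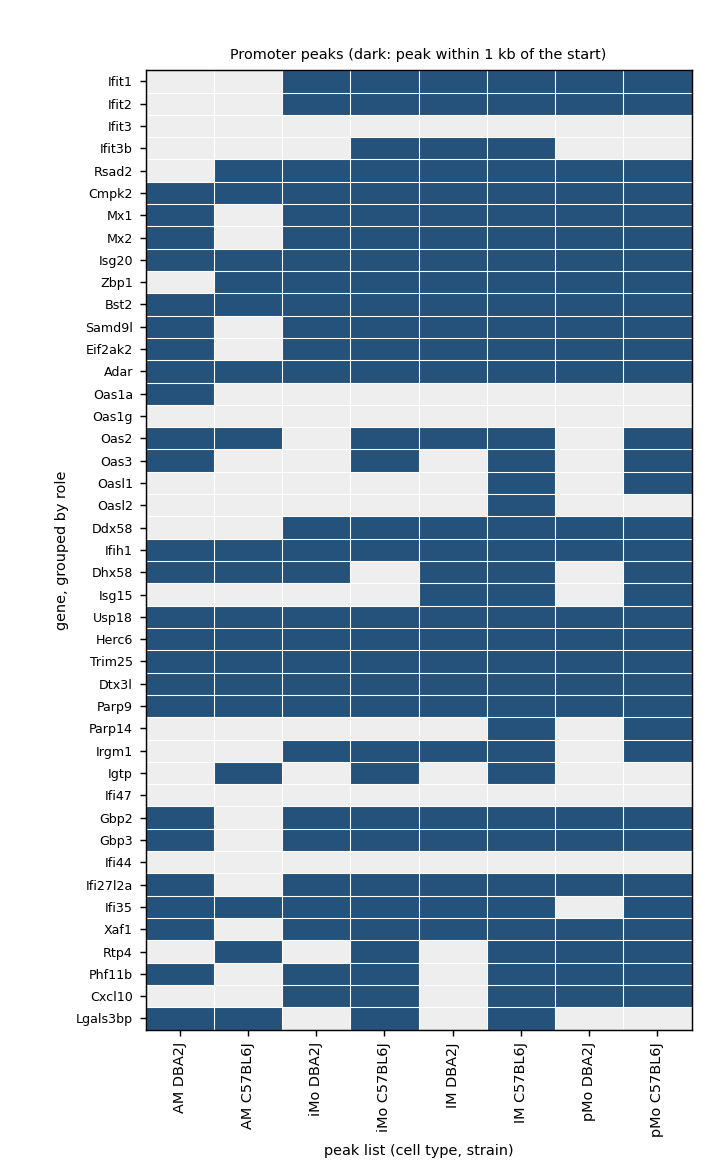
Promoter peaks of the 43 genes (rows, grouped by role) in the 8 peak lists (columns, by cell type and strain), dark where a peak lies within 1 kb of the start. The AM columns have 25 and 18 dark cells and the C57BL6J IM column, from the longest list, has 38.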

How the data were processed

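RNA-seq of polyA RNA and ATAC-seq were made from sorted lung cells. The submitters' processing notes name STAR, Bowtie, HOMER and mm10, with no versions or roles. The authors deposited TPM values for 24940 genes in 16 libraries, and the authors' 8 peak lists give a score for each peak whose scale the sources used here do not give. Each list covers both libraries of a cell type and strain, and the labels describe it as the optimal set of reproducible peaks. The deposited TPM values are steps of whole reads over genomic span (100% of values within 0.15 reads of a whole number, checked for values below 50 reads), so reads could be recovered. Here log2(TPM + 1) was fitted with limma 3.58.1 in R 4.3.3, with 8 group means, 8 residual degrees of freedom and a variance trend, over 12277 genes that reached a mean of 1 TPM. Adjusted p-values are Benjamini-Hochberg values over all tested genes within a comparison, 2-sided, and a gene was called below 0.05. The pseudocount of 1 TPM understates changes of low genes. The fit was tested on simulated data. Alternatives were other pseudocounts, filters, scalings, libraries and a replicate block, and voom on recovered reads and array weights were chosen after seeing the data. Members, lists and tests were chosen with earlier results of these data known. Values of every library are given for up to 10 called members with the largest difference per main comparison. All members called in the test of strain differences between types are named, with up to 4 pathway genes per list. Promoters come from RefSeq on GRCm38.p6, and 6 were printed in the order of the iMo minus pMo difference among members with an ISRE match.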

Additional observations from a re-analysis of the deposited data

Results flagged for a closer look

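For each of the 43 genes the 4 libraries of each cell type were searched for 1 value far from the other 3. This picked out 9 of 172 groups, a share near the 1 in 20 that chance flags among independent draws from the same population. Each group of 4 libraries mixes both strains, and the genes of a library move together, so that rate is only a guide. In IM the second C57BL6J library was far below the others in Mx1 (5.09 TPM, the others 40.4 to 52.2), Oas3 (10.0 TPM, the others 38.4 to 49.2) and Dhx58 (10.2 TPM, the others 28.2 to 33.5). The first DBA2J IM library was low in Bst2 (27.1 TPM, the others 39.6 to 42.7). In iMo the second DBA2J library was low in Ifit3b (4.33 TPM, the others 8.72 to 9.94) and Dhx58 (67.7 TPM, the others 86.5 to 89.8). In AM the second DBA2J library was high in Eif2ak2 (9.05 TPM, the others 5.42 to 5.603), Adar (20.7 TPM, the others 16.3 to 16.9) and Ifi44 (0.309 TPM, the others 0 to 0.044).

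For 5 genes the DBA2J minus C57BL6J difference was larger in IM than its mean in AM, iMo and pMo by a limma interaction test. The difference of differences on the log2 scale was 4.77 for Isg15, 2.19 for Rsad2, 1.82 for Rtp4, 1.48 for Igtp and 1.23 for Ifi27l2a, with adjusted p-values from 0.0105 to 0.0487. Both DBA2J IM libraries were above both C57BL6J IM libraries in each of the 5, as in 31 of 42 tested members and 25.5% of all tested genes. The 5 were called from these same libraries, so this separation is no further support.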

How the results depend on the processing

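Counts here are members called. Where no share of all tested genes stands beside a count, here or above, a change in it cannot be told apart from a change over all genes. The call counts of iMo over pMo, and of AM below each other type, stayed within 1.5 times under every alternative run. With median-of-ratios scaling, quantile normalization, removal of the ribosomal entries or voom on recovered reads, some members were higher in AM, where the reported counts were 0. They were 2 against the mean of the others, 2 against IM and 1 against iMo. Of all tested genes, 25.6% to 34.4%, 20.7% to 33.1% and 25.2% to 29.1% were then higher in AM in these comparisons. The 2 members higher in AM than in pMo became 0 with a log2 difference of at least 1 and 1 in C57BL6J alone. For DBA2J over C57BL6J in IM the reported 8, where 3.77% of all tested genes were called, became 5 with a pseudocount of 0.1. It became 0 with only the 4 IM libraries. With median-of-ratios scaling it was 15, with quantile normalization 17 and with voom 19, where 5.75%, 8% and 5.93% of all tested genes were called. In DBA2J 1 member was lower under each of the 4 scalings, voom included, where 7.23% to 9.61% of all tested genes were. Without 1 library these counts were 1 to 24 higher and 0 to 1 lower. The 5 interaction calls, where 1.8% of all tested genes were called, became 2 with a pseudocount of 0.1 and 10 with 5. They became 3 without a filter and 3 without a variance trend. With median-of-ratios scaling they were 10 and with quantile normalization 15, where 2.99% and 4.68% of all tested genes were called. How far they hung on 1 library is given above. For iMo over IM the reported 22 became 11 with a log2 difference of at least 1, 36 in C57BL6J alone, 4 in DBA2J alone and 12 without both C57BL6J IM libraries, with 14 to 30 without 1 library, and 1 member was lower in DBA2J alone and without both C57BL6J IM libraries. Isg15 reversed in iMo minus IM with DBA2J alone (-0.44, limma adjusted p = 0.672). For IM over pMo the reported 19 became 2 in C57BL6J alone and 29 without both C57BL6J IM libraries. The 1 member lower in IM than in pMo became 3 with median-of-ratios scaling or voom, 2 with quantile normalization, and 0 without a filter, with only the libraries compared, with a log2 difference of at least 1, in DBA2J alone, without both C57BL6J IM libraries and with array weights, and 0 to 3 without 1 library. The AM promoter peak counts of 25 and 18 became 14 and 11 with equal list lengths, where 51.0% and 53.6% of all tested genes had a peak. The cause of these shifts was not tested.

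Replicate numbers gave little sign of a pairing of libraries. For each group the replicate 1 minus replicate 2 difference was taken over all tested genes, and these differences were correlated between groups. The median correlation was 0.02 (-0.07 to 0.20 over 28 pairs of groups, 5 above 0.1). Over the 12 pairs within a strain it was 0.02 as well (-0.07 to 0.15). With the replicate block 6 members were called higher in DBA2J IM, and the interaction count was 3. With 2 libraries per group, differences within strains rest on few values, and genes near 0 in AM rest on few reads.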
